A study of Mus musculus with 7 samples.

Results

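The genes of the Bcl2 family, whose proteins decide whether the outer mitochondrial membrane is opened during apoptosis, were followed in C3H10T1/2 cells exposed to purmorphamine, a small-molecule agonist of Smoothened (Smo), the membrane protein that starts the Hedgehog response. All 10 members were taken by symbol from the 18468 genes of the count table: the pro-survival genes Bcl2, Bcl2l1, Bcl2l2 and Mcl1, the effectors Bax and Bak1, and the BH3-only genes Bcl2l11, Bid, Bbc3 and Pmaip1. All but Pmaip1 had enough reads to be tested, which makes 9 of 12388 genes left after low counts were filtered out. C3H10T1/2 is an established mouse line of mesenchymal origin that can be driven towards bone, cartilage or fat. Every culture had been without serum for 12 h before treatment and remained without it for the 48 h of treatment, with 2 μM purmorphamine (n = 4 libraries, numbered 5 to 8) or with 0.02% dimethylsulfoxide (DMSO) as vehicle (n = 3 libraries, numbered 2 to 4). Whether the libraries came from separate cultures is not given, so p-values measure only the spread between these libraries, which may be technical.

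Proteins of this family share short Bcl2 homology motifs and act by binding each other. Bax and Bak1 form the pores through which cytochrome c leaves the mitochondrion, the pro-survival proteins hold them in check, and the BH3-only proteins, which are induced or activated by stress, bind and neutralise the pro-survival proteins or activate Bax and Bak1 directly. Withdrawal of serum growth factors is a classical trigger for BH3-only genes in fibroblasts, and Bcl2 is known from other cells as a target of the Gli transcription factors, through which Smo acts.

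Totals lay between 14337225 and 14342154 reads in all 7 libraries, since the authors had resampled them to equal depth. The response to purmorphamine was present in every treated library. Gli1, itself a Gli target, had 7 to 12 reads with DMSO and 2522 to 3171 with purmorphamine, Ptch1, the Hedgehog receptor, had 504 to 532 and 10296 to 11451, and Hhip, another target, was at least 55.1-fold higher, taking 3 reads per library as the limit of a count of 0. The 9 mesenchymal markers examined were all present, Vim, Pdgfra and Col1a2 among them, with summed reads of 211812 to 217518 with DMSO and 174684 to 183991 with purmorphamine. They went both ways: 4 rose (Pdgfra 1.75-fold, Thy1 1.73-fold, Twist1 1.62-fold and Prrx1 1.2-fold), 3 fell (Vim, with a ratio of 0.53, S100a4 and Col1a2) and 2 were not called, and Vim and Col1a2 had the most reads. Of 12 markers of epithelial, blood, endothelial and skeletal muscle cells, 8 could be read. Their summed reads were 31 to 48 with DMSO and 165 to 175 with purmorphamine, and the genes that differed were Cdh1 (E-cadherin, 14 to 21 reads against 110 to 135) and Cdh5 (VE-cadherin, 0 reads in every DMSO library against 21 to 26). Cd68 had 10 to 18 reads. Krt14, Ptprc, Pecam1, Kdr and Des had no more than 6 reads in any library. The part of these genes in the results below was not tested. In these bulk RNA samples, a change in the number of cells of one kind and a change in RNA per cell cannot be told apart.

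Bcl2, the founding pro-survival member, showed the largest change of the family. It had 164, 136 and 150 reads in the DMSO libraries and 626, 518, 622 and 620 in the purmorphamine libraries. Each treated library held more than 3 times the reads of any untreated one, and the groups did not overlap. The means were 150.0 ± 14 reads (SD, n = 3) and 596.5 ± 52.4 (SD, n = 4), a ratio of 3.98. On the log2 scale the fold change was 1.94, with a SE of 0.0944 and an adjusted p of 3.04e-11 (edgeR, quasi-likelihood, Benjamini-Hochberg over 12388 genes). By this value Bcl2 ranked 116 among all genes tested, within the top 0.936%. With each library left out in turn the log2 fold change stayed between 1.87 and 2.02. Exact permutation of the libraries (35 assignments, two-sided) gave p = 0.0286, the smallest that 3 libraries against 4 allow. Purmorphamine replicate 6, with 518 reads, was the lowest of its group, and the other three lay within a few reads of each other.

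The gene lies on chromosome 1 from 106538178 to 106714274 (GRCm38, minus strand, ENSMUSG00000057329). No other annotated gene shares exon sequence with it on its strand, none of its 100-base windows recurs in a transcript of another gene, and 558 bases of its exons lie antisense to D630008O14Rik. Promoter sequences, 250 bases before to 50 after a RefSeq transcription start (GRCm38.p6), were at hand for 9 members in 14 windows, and are shown for the 2 members that rose with the smallest adjusted p, Bcl2 and Mcl1, with the GC box GGGCGG in capitals on either strand (read as CCGCCC on the other).
Bcl2 promoter, chr1:106714241-106714540, minus strand: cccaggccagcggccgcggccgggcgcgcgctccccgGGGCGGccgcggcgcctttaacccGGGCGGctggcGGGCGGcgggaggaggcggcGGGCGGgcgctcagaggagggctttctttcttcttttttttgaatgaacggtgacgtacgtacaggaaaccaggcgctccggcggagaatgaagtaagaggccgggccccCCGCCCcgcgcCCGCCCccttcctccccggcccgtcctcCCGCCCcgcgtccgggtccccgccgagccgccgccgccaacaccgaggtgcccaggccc
Mcl1 promoter, chr3:95658471-95658770, plus strand: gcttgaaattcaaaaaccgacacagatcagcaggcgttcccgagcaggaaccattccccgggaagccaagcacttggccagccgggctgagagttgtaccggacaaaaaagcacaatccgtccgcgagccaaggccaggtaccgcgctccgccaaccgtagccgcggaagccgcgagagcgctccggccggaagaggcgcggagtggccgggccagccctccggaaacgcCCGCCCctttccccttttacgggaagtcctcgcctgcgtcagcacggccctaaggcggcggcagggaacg
The Bcl2 window holds 7 GC boxes and is 76% G and C, and the Mcl1 window holds 1 and is 65.7% G and C, against a median of 52.7% over all 32851 promoter windows. The GC box occurs in 35.7% of all windows and in 10 of the 14 windows of members. These belong to 7 members, among them Bcl2l11, which was called lower, and Bax and Bbc3, which were not called. The Gli consensus GACCACCCA, searched on both strands, occurs in 0.253% of all windows and in none of the 14, which says only that these letters are not within these 300 bases.

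Mcl1, a short-lived pro-survival protein that holds Bak1 in check, was already the most abundant member and rose further. Its reads were 3202, 3219 and 3108 with DMSO and 4070, 4038, 4410 and 4041 with purmorphamine. The groups were well separated, and replicate 7 was the highest of the treated libraries. The means of 3176.3 ± 59.8 and 4139.8 ± 181 reads gave a ratio of 1.3, with a log2 fold change of 0.34 (SE 0.0479, edgeR adjusted p = 2.03e-05). Mcl1 lies on chromosome 3 from 95658788 to 95663176, plus strand.

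Bcl2l2, which encodes Bcl-w, rose slightly. It had 980, 996 and 946 reads with DMSO and 1101, 1138, 1141 and 1134 with purmorphamine, again without overlap. The ratio of means was 1.16 and the log2 fold change 0.17 (SE 0.0477, edgeR adjusted p = 0.00913). The exons of Bcl2l2 (chromosome 14 from 54883377 to 54888234, plus strand) share 594 bases with Gm20521, a gene annotated on the same strand, and 10.9% of its 100-base windows recur there. Gm20521 itself was counted with no more than 1 read in any library.

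Bcl2l1, which encodes Bcl-xL and at gene level also its shorter, death-promoting splice form, moved the other way. Its reads were 606, 618 and 641 with DMSO and 571, 542, 507 and 585 with purmorphamine. All 4 treated libraries lay below all 3 untreated ones, by a narrow margin. The log2 fold change was -0.22 (SE 0.0625, edgeR adjusted p = 0.00809), with a ratio of 0.887. Bcl2l1 lies on chromosome 2 from 152780668 to 152831728, minus strand. Of the 4 pro-survival genes, 3 rose and 1 fell, against 31.4% of all genes tested that were called higher and 31.1% lower. For Bcl2l1, Bcl2l2 and Mcl1 the exact permutation test (two-sided) gave p = 0.0286 each, and for Bcl2l1 it was 0.0571 on the counts as deposited.

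**Figure D1:**
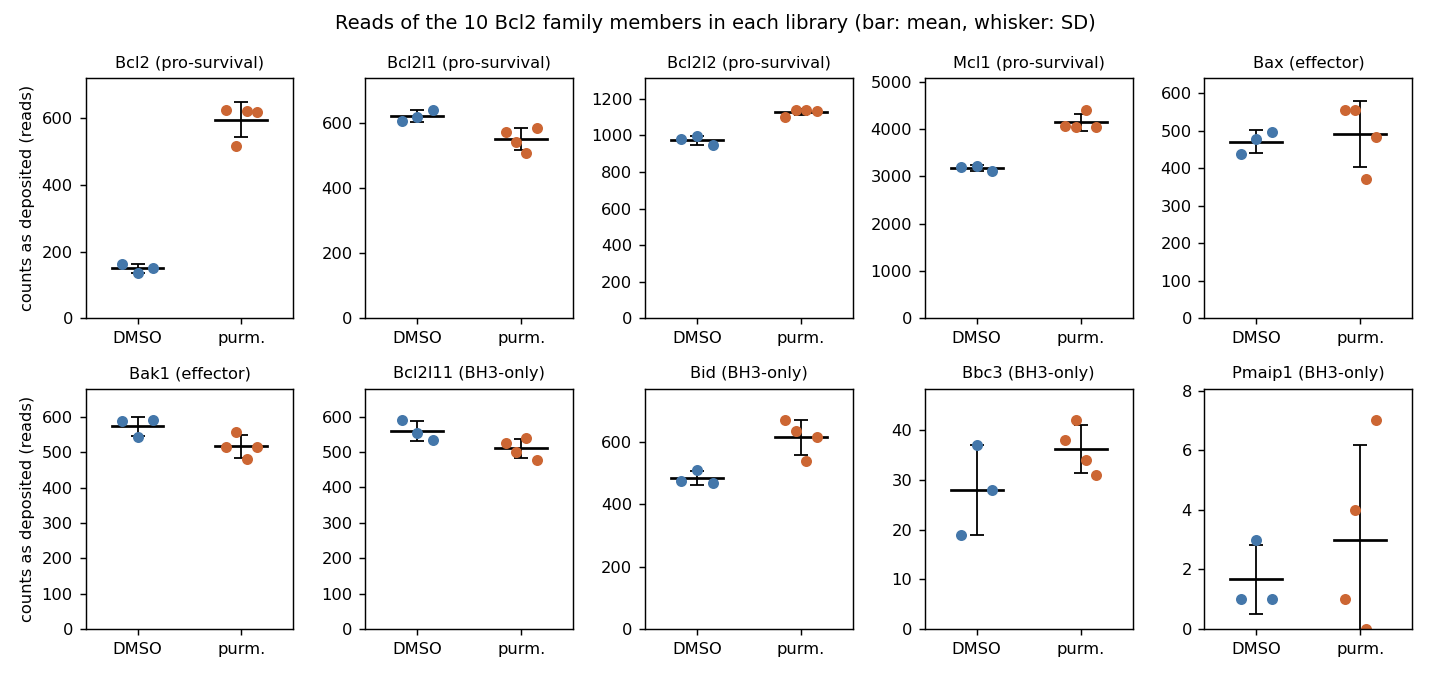
Reads per library (vertical axes, counts as deposited, starting at 0) for the 10 members with DMSO (3 blue points) and purmorphamine (4 orange points, labelled purm.), with the mean as a bar and the SD as a whisker. Bcl2 rose from 136 to 164 reads to 518 to 626, Mcl1, Bcl2l2 and Bid rose and Bcl2l1 fell without overlap, and the points of the other 5 members overlapped.

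Of the effectors, Bak1 fell slightly and Bax was not called. Bak1 had 589, 543 and 590 reads with DMSO and 514, 557, 480 and 515 with purmorphamine. Replicate 6 of the treated libraries lay above replicate 3 of the untreated ones, so the groups overlapped. The log2 fold change of Bak1 was -0.20 (SE 0.065, edgeR adjusted p = 0.0186), and the exact permutation test (two-sided) gave p = 0.0571. Bak1 lies on chromosome 17 from 27019810 to 27029009, minus strand, with at most 614 bases of its exons antisense to Ggnbp1.

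Bax had 437, 478 and 496 reads with DMSO and 554, 556, 371 and 483 with purmorphamine. Its treated libraries spread to both sides of the untreated ones, with a SD of 86.9 reads against 30.2. The log2 fold change was 0.01 (SE 0.106, edgeR adjusted p = 0.929). The value rested on purmorphamine replicate 7: without it the log2 fold change was 0.13 and Bax was called higher (adjusted p = 0.159 from edgeR), and over the other libraries left out it ran from -0.041 to 0.061. Bax lies on chromosome 7 from 45461697 to 45466898, minus strand, and 5.33% of its 100-base windows recur in Gm45808, which overlaps it on the same strand.

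The 4 BH3-only genes did not move together. Bid, whose product is cut by caspase-8 and carries the death receptor signal to the mitochondrion, rose from 475, 512 and 469 reads with DMSO to 670, 637, 538 and 617 with purmorphamine. The lowest treated library, replicate 7, was still above the highest untreated one. The log2 fold change of Bid was 0.30 (SE 0.0727, edgeR adjusted p = 0.00304), the ratio of means 1.27, and the exact permutation test (two-sided) gave p = 0.0571. Bid lies on chromosome 6 from 120891930 to 120916853, minus strand, and 628 bases of its exons are antisense to those of Bcl2l13. The counts are of the sense strand, and Bcl2l13 itself was not called (log2 fold change 0.01).

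Bcl2l11, which encodes Bim, the BH3-only protein best known for killing cells deprived of growth factors, fell slightly. Its reads were 589, 554 and 535 with DMSO and 525, 501, 538 and 478 with purmorphamine. Replicate 7 of the treated libraries exceeded replicate 4 of the untreated ones, so the groups overlapped narrowly. The log2 fold change was -0.18 (SE 0.0652, edgeR adjusted p = 0.0329), and the exact permutation test (two-sided) gave p = 0.0571. Bcl2l11 lies on chromosome 2 from 128126038 to 128162547, plus strand. Bim is a known target of the FoxO factors, which are forkhead proteins, and the promoter window of its upstream start, with the forkhead letters GTAAACA in capitals, reads as follows.
Bcl2l11 promoter, chr2:128125788-128126087, plus strand: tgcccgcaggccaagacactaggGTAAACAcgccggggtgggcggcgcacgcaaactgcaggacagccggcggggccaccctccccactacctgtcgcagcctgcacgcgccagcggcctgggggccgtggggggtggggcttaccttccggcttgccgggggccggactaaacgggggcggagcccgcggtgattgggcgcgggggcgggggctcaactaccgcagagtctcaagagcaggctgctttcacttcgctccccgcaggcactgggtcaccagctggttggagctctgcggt
These letters, searched on both strands, occur in 3.65% of all promoter windows and in 2 of the 14 windows of members, the other being 1 of the 3 windows of Bbc3.

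Bbc3, which encodes Puma, and Pmaip1, which encodes Noxa, are induced by p53 in other settings and were scarce here. Bbc3 had 19, 37 and 28 reads with DMSO and 38, 42, 34 and 31 with purmorphamine. The groups overlapped, and the log2 fold change of 0.32 (SE 0.222, edgeR adjusted p = 0.248) was not called. At this depth the call hung on single libraries: it was gained without DMSO replicate 3 (log2 fold change 0.57, adjusted p = 0.0797) or purmorphamine replicate 8 (0.40 and 0.186), and without DMSO replicate 2 the value was 0.11. Pmaip1 had 1, 3 and 1 reads with DMSO and 1, 4, 0 and 7 with purmorphamine, too few for the test, and no fold is given because the mean of either group did not exceed the 3 reads taken as the limit of a count of 0. Bbc3 lies on chromosome 7 from 16308393 to 16318205 and Pmaip1 on chromosome 18 from 66458533 to 66465565, both on the plus strand.

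Of the 9 members tested, 4 were called higher (Bcl2, Mcl1, Bcl2l2 and Bid) and 3 lower (Bcl2l1, Bak1 and Bcl2l11) at an adjusted p under 0.2 from edgeR, the FDR used in the study. A large part of the transcriptome differed between the groups, and 62.5% of all genes tested were called at this threshold, 31.4% higher and 31.1% lower. The share of members called, 77.8% of 9 genes, is therefore no result about the family. The same 7 members had an adjusted p under 0.05, as did 46.9% of all genes tested. With a change of at least 1.5-fold required as well, 1 member was called higher, Bcl2, and 0 lower, against 15.4% of all genes, 7.89% higher and 7.56% lower. The groups did not overlap for 5 of the 9 members, against 49.5% of all genes. The median log2 fold change of the 9 members was 0.17 against 0.004 over all genes tested. It lay between the quartiles of all genes tested, -0.185 and 0.21.

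**Figure D2:**
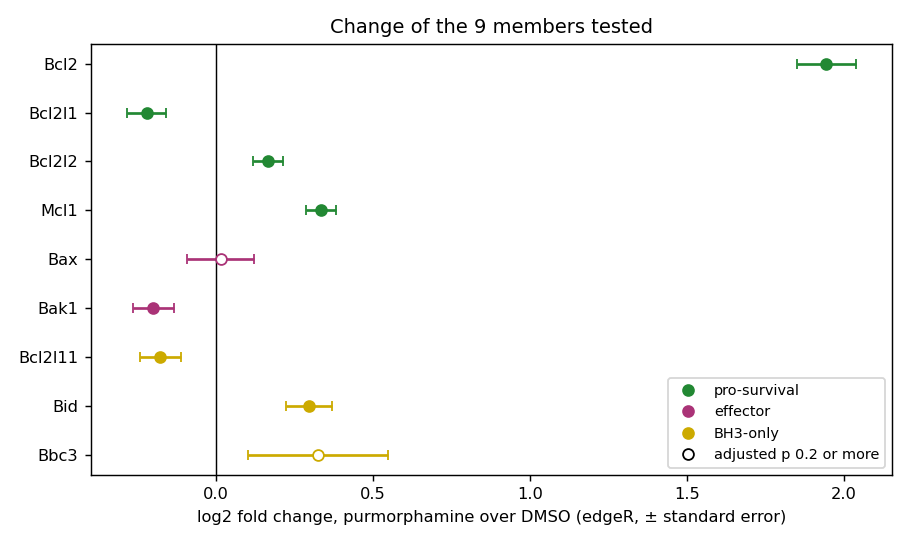
Log2 fold change of purmorphamine over DMSO (horizontal axis, edgeR, bars are standard errors) for the 9 members tested, coloured by role, with open points for an adjusted p of 0.2 or more. Bcl2 stands at 1.94, the other called members lie between -0.22 and 0.34, and the open points are Bax and Bbc3.

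Single purmorphamine libraries were at an extreme for several members at once. After TMM scaling, replicate 7 was the lowest of the 4 for 5 members (Bcl2l1, Bax, Bak1, Bid and Pmaip1) and the highest for 4 (Bcl2, Bcl2l2, Mcl1 and Bcl2l11). Replicates 5, 6 and 8 were the lowest for 1, 2 and 2 members. Of the 7 members called, none lost its call or its direction when any 1 library was left out. Bcl2l11 came closest to losing it, with an edgeR adjusted p of 0.177 without DMSO replicate 2.

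Levels were compared between members as reads per kilobase of exon and per 1000000 reads, with TMM scaling and the exon lengths of GENCODE M21. The annotation used for the deposited counts is not given, so the exons counted may differ from these lengths. With DMSO the order from the highest level was Mcl1 (66.0 ± 1.03, SD, n = 3), Bax (21.2 ± 1.38), Bak1 (16.9 ± 0.861), Bcl2l2 (15.5 ± 0.348), Bid (9.71 ± 0.424), Bcl2l1 (9.63 ± 0.297), Bcl2l11 (4.95 ± 0.241), Bcl2 (1.16 ± 0.112), Bbc3 (0.936 ± 0.298) and Pmaip1 (0.0433 ± 0.0298). In this order Bid and Bcl2l1, and Bcl2 and Bbc3, could not be separated, since their libraries overlapped. In untreated cells Bcl2 thus stood beside Bbc3 near the bottom of the family. The order of the middle members depended on the length used. With the longest transcript of each gene in its place, Bcl2l1 had a DMSO level of 17.2 and ranked 4, ahead of Bak1 (17.1, rank 5) and Bid (14.3, rank 6), whereas Mcl1 and Bax remained the highest and Bcl2, Bbc3 and Pmaip1 the lowest.

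With purmorphamine the level of Bcl2 was 4.48 ± 0.407 (SD, n = 4), which overlapped that of Bcl2l11 (4.37 ± 0.247) and no longer that of Bbc3 (1.17 ± 0.152). Mcl1 reached 83.3 ± 4.09 and Bcl2l2 17.4 ± 0.313, which then overlapped with Bax (21.4 ± 3.71). Bak1 (14.8 ± 0.83), Bid (11.9 ± 1.04) and Bcl2l1 (8.26 ± 0.489) followed, each separate from its neighbours with these exon lengths. With the longest transcript Bid (17.5) came before Bak1 (14.9) and Bcl2l1 (14.8), which were then close to each other. Of the summed levels of the 4 pro-survival genes, Bcl2 made up 1.13% to 1.37% with DMSO and 3.51% to 4.19% with purmorphamine. Its 3.98-fold rise in reads therefore left it a small part of the pro-survival RNA, most of which was Mcl1. That sum was 91.1 to 93.0 with DMSO and 110.0 to 119.0 with purmorphamine. The sum of both effectors was 37.1 to 39.9 and 30.1 to 40.0, and that of the BH3-only genes 15.1 to 16.4 and 16.3 to 18.7, overlapping between the groups in both cases. With the longest transcript as length Bcl2 came just after Bcl2l11 with purmorphamine.

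**Figure D3:**
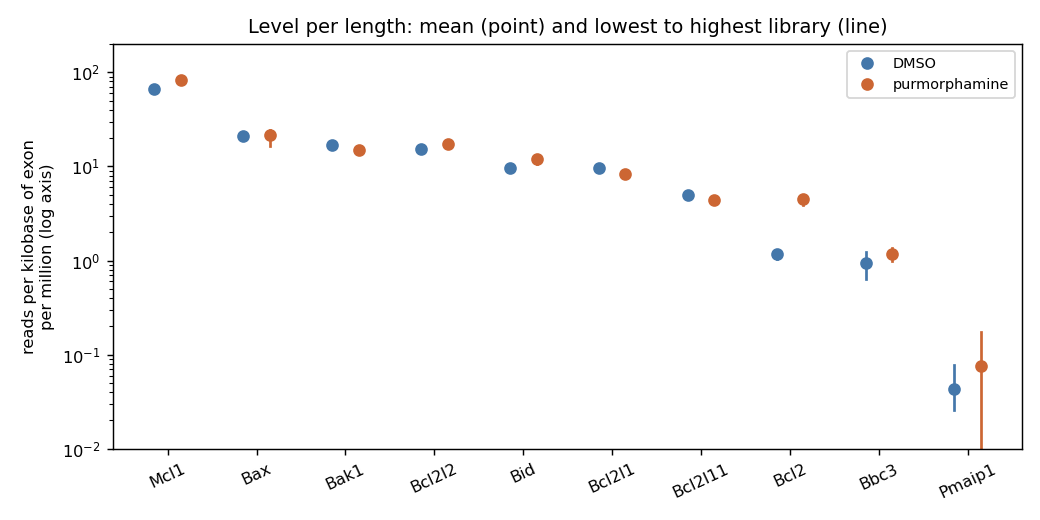
Level of each member in reads per kilobase of exon and per 1000000 reads (vertical log axis), ordered by the DMSO mean, with points for group means and lines from the lowest to the highest library. Mcl1 is highest in both groups, Bcl2 moves from beside Bbc3 to beside Bcl2l11, and the line of Pmaip1 with purmorphamine runs to 0 and is clipped by the log axis.

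Within a library, the ratio of the reads of a pro-survival gene to those of a pro-death gene does not depend on library scaling, and its change does not depend on gene length. Of 9 such pairs, the groups did not overlap for 4, and in these 4 the ratio was higher with purmorphamine. These were Bcl2 against Bax and Bcl2l11, and Mcl1 against Bak1 and Bcl2l11. Bcl2, Mcl1 and Bcl2l11 each recur in them, so the 4 are not independent. Among single genes, the groups did not overlap for 49.5% of all genes tested, and the share for pairs of genes was not computed. The 9 pairs are only part of those possible, and none includes Bid, the only pro-death member called higher. Bcl2l1 had more reads than Bid in each DMSO library and fewer in each purmorphamine library, so that ratio fell without overlap. The direction shared by the 4 pairs therefore holds only for the pairs chosen. For Bcl2 to Bax the log2 ratio was -1.41, -1.81 and -1.73 with DMSO and 0.18, -0.10, 0.75 and 0.36 with purmorphamine, a difference of 1.95 or 3.85-fold. The reads of Bcl2 were below those of Bax in every DMSO library and above them in 3 of the 4 purmorphamine libraries. This crossing is one of reads, since Bcl2 has 9157 bases of exon and Bax 1576, and per length Bcl2 remained below Bax with purmorphamine (4.48 against 21.4). For Bcl2 to Bcl2l11 the log2 ratio went from a mean of -1.90 ± 0.108 (SD, n = 3) to 0.22 ± 0.135 (SD, n = 4), a change of 4.36-fold.

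The pairs with Mcl1 changed less. Mcl1 to Bak1 rose 1.45-fold, from a mean log2 ratio of 2.47 ± 0.0882 to 3.0 ± 0.143, and Mcl1 to Bcl2l11 rose 1.43-fold, from 2.51 ± 0.0554 to 3.02 ± 0.0521. The libraries overlapped for Mcl1 to Bbc3 (difference of -0.034 on the log2 scale) and for Mcl1 to Pmaip1 with 1 read added to each (0.13), the pairs with the fewest reads. They also overlapped for Bcl2l2 to Bax (0.17), Bcl2l1 to Bax (-0.22) and Bcl2l1 to Bak1 (-0.022). The difference for Bcl2l2 to Bax was 0.033 without purmorphamine replicate 7 and 0.243 without replicate 5, and that for Bcl2l1 to Bax was -0.31 without replicate 7 and -0.147 without replicate 6. The reads of Bcl2l1 include both of its splice forms. These ratios are descriptions of the pairs and were not tested.

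**Figure D4:**
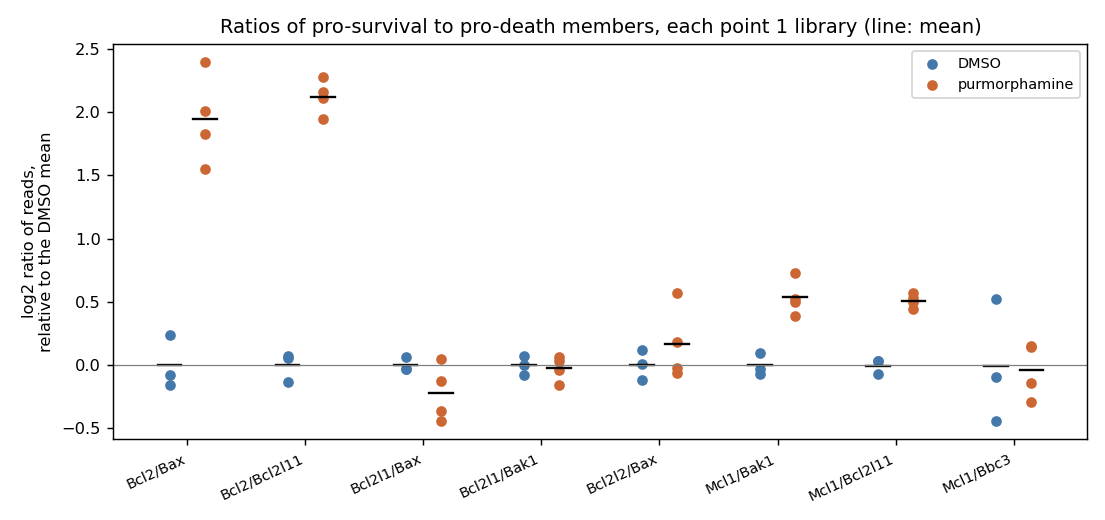
Log2 ratio of the reads of a pro-survival to a pro-death gene, relative to the DMSO mean of the pair (vertical axis), for 8 pairs, 1 point per library with the group mean as a line. Pairs with Bcl2 rose by 1.95 and 2.12 and those of Mcl1 with Bak1 and Bcl2l11 by 0.535 and 0.513, whereas the points of the other pairs overlapped. The pair of Mcl1 with Pmaip1 and any pair with Bid are not drawn.

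Other genes of the apoptotic pathway were read from 7 lists, to be set against the 62.5% of all genes tested that were called, 31.4% higher and 31.1% lower. The share called was below this in 4 lists, with 42.9% of the other Bcl2 family genes, 35.7% of the apoptosome list, 36.4% of the death receptor list and 44.4% of the turnover list. It was 80.0% of the inhibitor of apoptosis proteins, 75% of p53 and its targets and 66.7% of the regulators of BH3-only genes, on 5, 20 and 9 genes. Among 16 further genes of the Bcl2 family, 7 could be tested, of which 1 rose and 2 fell. With library totals in place of TMM factors 2 rose and 2 fell. Bmf, a BH3-only gene whose product is held on the actin cytoskeleton by a dynein light chain and freed by loss of attachment, fell from 770, 815 and 808 reads to 507, 608, 537 and 534. No library of one group reached the other, and the log2 fold change was -0.59 (SE 0.0636, edgeR adjusted p = 7.61e-07), the largest decrease of any BH3-only gene tested. The others called were Bnip3, which fell (-0.27), and Bad, which rose (0.20, adjusted p = 0.186 from edgeR) with overlapping libraries. No gene of this list was called higher by DESeq2, without DMSO replicate 2 or without purmorphamine replicate 5. Bik, Bok and Bcl2l14 were below the filter, and 6 genes of the list were not analysed here.

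Downstream of the mitochondrion, all 14 genes of the apoptosome and effector caspase list were tested, of which 2 rose, 3 fell and 9 were not called. Cycs, which encodes cytochrome c, fell, from 289.7 ± 9.61 to 231.0 ± 25.5 reads (log2 fold change -0.37, adjusted p = 0.00268 from edgeR). Apaf1, the scaffold of the apoptosome, and Casp9, its initiator caspase, were not called (-0.025 and 0.062). None of the 14 was called at 1.5-fold.

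The inhibitor of apoptosis proteins bind caspases or tag signalling proteins with ubiquitin. Of the 5 tested, 3 rose and 1 fell, and Birc3, which encodes cIAP2, changed most, from 192, 203 and 232 reads to 382, 447, 432 and 368. All treated libraries were higher, with a ratio of means of 1.95 (log2 fold change 0.91, SE 0.0938, edgeR adjusted p = 4.31e-07). Birc5 (0.57), which encodes survivin and also serves in mitosis, and Birc2 (0.26) rose as well, Birc6 fell (-0.21), and Xiap, a direct inhibitor of caspases, was not called (0.003).

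In the death receptor pathway 11 genes were tested, of which 2 rose (Tnfrsf10b and Traf2), 2 fell (Tnfrsf1a and Tnfrsf21) and 7 were not called, Casp8 among them (-0.030). None was called at 1.5-fold. Tnfrsf21, with 29 to 41 reads, was near the threshold (log2 fold change -0.28, edgeR adjusted p = 0.191), and with any library but purmorphamine replicate 8 left out 1 gene fell. With library totals in place of TMM factors 3 rose and 1 fell.

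Of the 20 genes tested among p53 and its targets, 10 rose, 5 fell and 5 were not called, with a median log2 fold change of 0.068. Trp53 itself fell slightly, from 1308.0 ± 44.0 to 1180.8 ± 101 reads (log2 fold change -0.20, adjusted p = 0.0139 from edgeR). Its groups overlapped, and the exact permutation test (two-sided) gave p = 0.0857. Cdkn1a, a classical p53 target and a brake on the cell cycle, fell by 0.13 on the log2 scale. Mdm2, the target that degrades p53, was not called (-0.043). The members of the list with changes over 1.5-fold went in both directions. Eda2r, a receptor of the TNF receptor family, rose from 293, 316 and 282 reads to 1070, 1078, 1182 and 1152 (log2 fold change 1.87, adjusted p = 5.58e-13 from edgeR), and Perp, a membrane protein with roles in cell adhesion and p53-dependent death, from 44.33 ± 5.51 to 88.75 ± 13.6 reads (0.95). Btg2, an antiproliferative gene, fell from 350.3 ± 24.2 to 195.5 ± 18.4 reads (-0.89), and Plk2, a kinase induced by p53 and by serum, from 3677.7 ± 40.0 to 2062.8 ± 104 (-0.88). In each of these 4 genes the groups did not overlap.

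Among 9 regulators of BH3-only gene transcription, 5 rose, 1 fell and 3 were not called, and with library totals in place of TMM factors 6 rose and 0 fell. Foxo3, which drives Bim and Puma transcription when growth factors are withdrawn, rose from 1146, 1163 and 1146 reads to 1411, 1483, 1445 and 1461 (log2 fold change 0.29, standard error 0.0454, adjusted p = 6.27e-05 from edgeR), without overlap. Its relatives Foxo4 (0.57) and Foxo1 (0.18) rose too, whereas Bcl2l11 fell by 0.18 on the log2 scale and Bbc3 was not called. FoxO proteins are controlled mainly by phosphorylation, which reads do not measure, and a link between these changes was not tested.

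Of 9 genes for the turnover and anchoring of Mcl1 and Bim proteins, 0 rose and 4 fell, against 31.4% higher and 31.1% lower among all genes tested. Dynll2, the dynein light chain that holds Bmf, fell by 0.44 on the log2 scale and Gsk3b, a kinase that marks Mcl1 for degradation, by 0.22, whereas the ubiquitin ligases Huwe1 and Fbxw7 and the deubiquitinase Usp9x were not called (-0.030, -0.075 and 0.008).

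**Figure D5:**
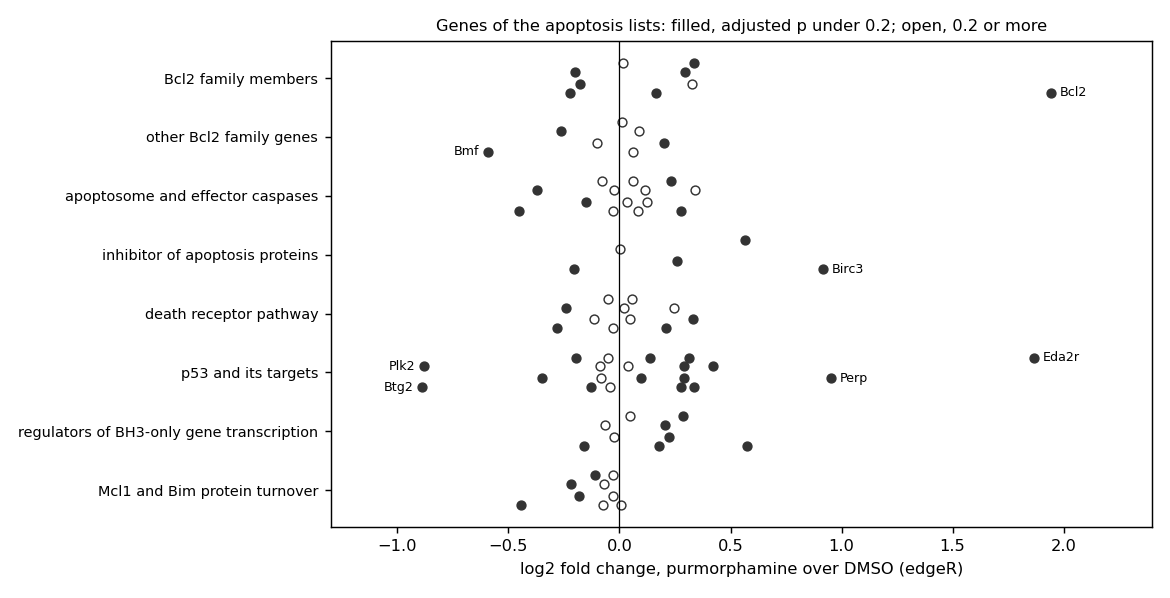
Log2 fold change of purmorphamine over DMSO (horizontal axis, edgeR) for each gene tested in the Bcl2 family and the 7 other lists, 1 point per gene, filled for an adjusted p under 0.2. Genes called with at least 1.5-fold change are named: Bcl2 and Eda2r lie at 1.94 and 1.87, Perp and Birc3 above 0.9, and Bmf, Btg2 and Plk2 below 0.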

How the data were processed

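RNA of 7 libraries (3 DMSO, 4 purmorphamine) had been sequenced by the authors as stranded total RNA depleted of ribosomal RNA, in single reads of 100 bases. The deposited counts are whole numbers of sense-strand reads per gene, made by the authors after resampling the reads to equal depth. The submitters' processing notes name STAR 2.5.3a and mm9. The annotation is not given in the sources used here. Isoforms are not separated. The authors' own test was limma-voom at an FDR of 0.2.

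From the counts, edgeR 4.0.16 (R 4.3.3) was run with TMM factors (0.978 to 1.02), its default filter (minimum count 10, total 15) and the quasi-likelihood test without covariates. Standard errors were taken from the fold change and the F statistic. Exact permutation tests used log2 of TMM-scaled counts plus 1. Listed genes with no more than 3 reads in each DMSO library are given as bounds. The calculation was tested on simulated counts. Positions and lengths came from GENCODE M21 by Ensembl identifier, promoters from RefSeq. No per-sample column was left out. Alternatives were other scalings, DESeq2 1.42.0, limma-voom 3.58.1, other filters and thresholds and each library left out. The members and lists were chosen with earlier results of these data known. Genes named are all members, a few core genes of each pathway, the Hedgehog genes, and the largest changes of at least 1.5-fold without overlap in each list. Others named in the text were chosen after their values were seen. Some genes that this rule names are not reported here.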

Additional observations from a re-analysis of the deposited data

Results flagged for a closer look

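For Bcl2 and for Mcl1, a single purmorphamine library lay away from the other three. As a share of the group's range after TMM scaling, its distance to the next library was 0.925 for Bcl2, where replicate 6 was the lowest with 518 reads, and 0.881 for Mcl1, where replicate 7 was the highest with 4410 reads. Both exceed Dixon's critical value. Among 30 genes examined chance gives about 1.5 such cases, and 2 were found. Without replicate 6 the log2 fold change of Bcl2 was 2.02, and without replicate 7 that of Mcl1 was 0.31, and both kept their call.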

How the results depend on the processing

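No paired analysis was possible because the labels give no pairing, only running numbers (DMSO 2 to 4, purmorphamine 5 to 8). The 7 called members kept call and direction in every alternative but the 1.5-fold threshold, which left Bcl2 and removed Bcl2l1 (-0.22), Bcl2l2 (0.17), Mcl1 (0.34), Bcl2l11 (-0.18), Bak1 (-0.20) and Bid (0.30) by its construction, so that 1 member was called higher and 0 lower. With single libraries left out, 4 to 5 members were higher, and the adjusted p of Bcl2l11 from edgeR reached 0.177. Bbc3 gained a call with library totals alone (log2 fold change 0.37, adjusted p = 0.187 from edgeR) and ran from 0.11 to 0.57 with single libraries left out, Bax from -0.041 to 0.13. Pmaip1, tested without the filter, had an adjusted p of 0.534. With single libraries left out, the log2 differences of the ratios kept their sign except for Mcl1 to Bbc3 (-0.252 to 0.225), Mcl1 to Pmaip1 (-0.42 to 0.62) and Bcl2l1 to Bak1 (-0.059 to 0.022). By level per length Bcl2 ranked 7 with purmorphamine, and 8 with the longest transcript as length. That length moved Bcl2l1 most with DMSO, from 9.63 to 17.2, and Bcl2l11 from 4.95 to 7.89.

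At 1.5-fold, the number called higher and lower was 0 and 1 among other Bcl2 family genes, 0 and 0 in the apoptosome, death receptor and BH3-only regulator lists, 1 and 0 among inhibitor of apoptosis proteins and 2 and 2 among p53 targets, and 0 turnover genes were lower. At an adjusted p under 0.05, 0 other family genes and 1 apoptosome gene were higher, and 1 death receptor gene, 0 BH3-only regulators and 2 turnover genes were lower. With library totals alone, 2 other family genes were higher, and 1 death receptor gene and 0 BH3-only regulators lower. DESeq2 called 0 other family genes higher and 1 death receptor gene lower. With single libraries left out, other family genes higher were 0 to 1, apoptosome genes higher 1 (without DMSO replicate 3) to 3 and death receptor genes lower 1 to 2. With at least 10 counts in every library, Ptch1 alone of the 4 Hedgehog genes was left to test. For thresholds and filters the cause is their construction, and otherwise the cause was not tested.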

Other observations

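Genes around Bcl2 on chromosome 1 were read after its values had been seen. Of the 10 nearest tested genes, 5 on either side, 7 were not called, 1 rose and 2 fell. Over all genes tested, 31.4% were called higher and 31.1% lower. The median log2 fold change of the 10 was -0.024, against 0.004 over all genes tested. Kdsr, the next gene upstream, which encodes an enzyme of sphingolipid synthesis, fell by 0.13 on the log2 scale, and Phlpp1, the next tested gene on the other side, which encodes a phosphatase of Akt, had -0.043. Serpinb8, farther upstream, rose by 1.12, whereas Serpinb5, with a mean of 14 reads with DMSO and 3.25 with purmorphamine, fell by 2.11.

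Of the 10673 genes averaging 50 reads or more, those whose log2 CPM followed Bcl2 most closely over the 7 libraries were Bicc1 (Pearson's r = 0.9993), Ifi202b (0.9988) and Ak3 (0.9987), given as a description. The 7 libraries fall into the treatment groups, so that any gene with a clear change and little spread scores high. These 3 genes rose less than Bcl2, with log2 fold changes of 0.76, 0.90 and 0.81.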
